A study of Triticum aestivum with 58 samples.

Results

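Among the 82 leaf libraries of seedling bread wheat in these data, the 20 with the highest summed expression of root-type genes were set beside the 20 with the lowest. The series holds 163 libraries in all, of leaf and root. Every library was counted on 120744 annotated genes, and the counts were scaled by the library total to CPM, the usual measure of relative abundance in RNA-seq. A root-type gene had a median of at least 20 CPM over the 81 root libraries and at most 0.1 CPM over the leaf libraries, and 434 genes met both limits. The score of a leaf library was the summed CPM of these genes. The high-score libraries (20) and the low-score libraries (20) were thus chosen by the score, so the score itself and every difference between them is given as a description, with no p-value. The 42 libraries in between took no part in that contrast and gave the tests. The seedlings were sown in triplicate in peat moss, no treatment was named, and leaf and root tissue was taken at the seedling stage. Leaf and root are the only labelled groups. Leaf carries 30 cultivar names, of which 6 (Gabo, Hope, S-24, Sonalika, TJ-83 and Zincol-2016) are not in the study's table of 24 cultivars. Where nothing says that replicates came from separate plants, a p-value measures only the spread between these libraries.

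Roots and leaves share most of their expressed genes, and tissue identity rests on smaller sets. In a cereal seedling the crown at the shoot base bears both the leaf meristems and the primordia of crown roots, so genes of root initiation can be transcribed close to the leaf bases. Auxin, whose response runs through Aux/IAA repressors, acts in leaf primordia as well as in roots. Bread wheat is hexaploid, and most genes are present as A, B and D homoeologues, which the last letter of the names used here denotes.

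The libraries were of like depth. Totals ran from 8.11 to 10.3 M counts in the high-score group (median 9.16 M), from 8.18 to 10.1 M in the libraries in between and from 8.12 to 10.1 M in the low-score group (median 9.26 M). The median number of genes with at least 1 read was 61868 in the high-score group, 60958.5 in between and 59446 in the low-score group. Genes that were either on or off were used to compare libraries: a root library under the same cultivar name was among the matches of 6 leaf libraries, 60 matched only root libraries under other names, and 16 had no match, so a cultivar name is used below only to name a library. No root sample is named Hope or TJ-83, so the leaf libraries of these names could not match their own name. In Chakwal-97 replicate 2, a high-score library, the median gene of chromosome 3B stood at a log2 ratio of -5.74 to the leaf median and that of chromosome 6B at -0.94. In Dirk replicate 3, also in the high-score group, chromosome 6B stood at 0.56, and in Inquilab-91 replicate 2 of the low-score group chromosome 1A stood at -0.90. No pair of leaf libraries agreed within sampling noise.

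Scores ran from 4.77 CPM in Dirk replicate 2 to 231 CPM in Chakwal-50 replicate 2, a 48.5-fold range. The high-score group held a mean of 95.2 ± 47.9 CPM (SD, n = 20) and the low-score group 9.83 ± 2.60 CPM (SD, n = 20). The last library inside the high-score group, Dharabi-2011 replicate 3, had 44.4 CPM and the first outside it, Zincol-2016 replicate 1, had 41.1 CPM. At the other end the limit fell between 13.5 and 13.9 CPM. Along the ranking there was no gap at either limit, so the high-score group is the upper end of a continuous range.

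**Figure D1:**
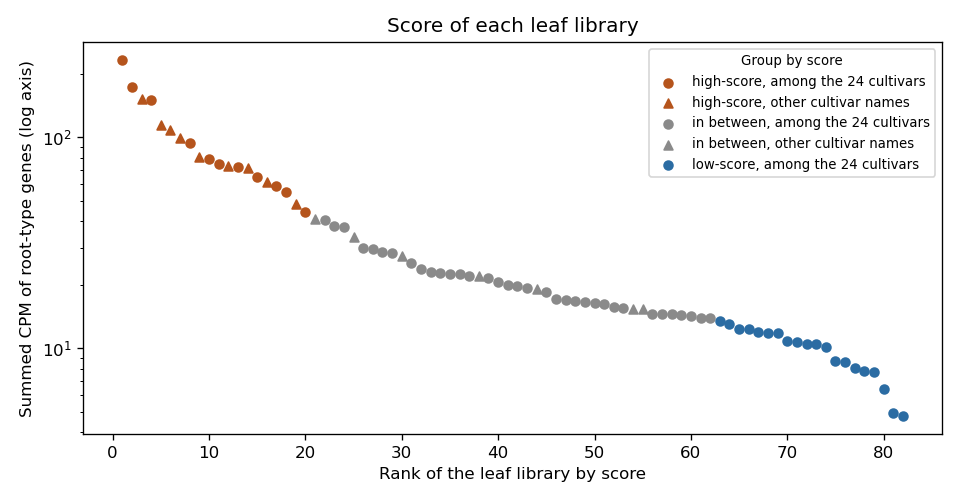
Score of each of the 82 leaf libraries (summed CPM of 434 root-type genes, log axis) against its rank. Color marks the high-score group, the libraries in between and the low-score group, and triangles mark the cultivar names outside the study's table of 24. Scores fall smoothly from 231 to 4.77 CPM, and no triangle lies in the low-score group.

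These scores were small beside those of root. The 81 root libraries had scores between 14380 and 42226 CPM with a median of 29640 CPM. The mean score of the high-score group was 0.321% of that median, that of the low-score group 0.0332%, and the highest leaf score 0.781%. Nor did the score reflect the whole set: of the 434 genes, 80 had no read in any leaf library, 109 had none in the high-score group and 176 had none in the low-score group. In the high-score group 347 of the genes had a median of 0 CPM and 8 had a median of at least 1 CPM. A single high-score library held reads of 67 to 157 of the genes (median 108), against 25 to 70 in a low-score library (median 51.5). Across the 434 genes, the mean CPM in the high-score group and the median CPM in root showed no common order (Spearman's rho -0.03, given as a description, since genes are not replicates). These values come from the genes and libraries that the rule chose, and describe only how the score was made up.

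The 10 leading genes carried 41.1% of the mean score in the high-score group, the 50 leading genes 75.8% and the 100 leading genes 88.3%. Neither the deposited files nor the reference table pairs these IDs with a gene name, so they are given by ID, and the chromosome is read from the ID. The leading gene, TraesCS6B02G282000 on chromosome 6B, ran from 0 to 33.9 CPM in the high-score group with a median of 1.19 CPM. It did not pass 0.108 CPM in the low-score group, and its root median was 29.3 CPM. TraesCS6D02G224500 and TraesCS6A02G242500 reached 22.8 and 23.4 CPM in the same library, Chakwal-50 replicate 2, and had high-score medians of 1.01 and 1.13 CPM. Each of these 3 genes was at 1 CPM or more in 10 of the 20 high-score libraries and in none of the low-score group.

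The genes behind the score fell into sets that did not rise in the same libraries. Of the 40 leading genes, 18 varied together over the 82 leaf libraries (average linkage on Spearman's correlation, cut at 0.45), among them the 3 just named. This set made up a median of 57.2% of the score in the high-score group, but its share ran from 1.01% to 84.0% and was under 10% in 6 of the 20 libraries. Other leading genes were far higher in 1 library than in the rest. TraesCS1A02G424100 stood at 55.2 CPM in Pasban-90 replicate 1, above its root median of 20.6 CPM, and did not pass 4.98 CPM in any other library of the high-score group. TraesCS6B02G383500 stood at 47.1 CPM in Dirk replicate 3, where it alone made 63.3% of the score, against a root median of 26.9 CPM. That library also carries the raised chromosome 6B, whose part in the value was not tested. TraesCS5D02G388700, of the set of 18, stood at 66.97 CPM in Chakwal-97 replicate 2 with a median of 0.446 CPM over the high-score group. In all, 12 different genes led the score in the 20 high-score libraries. Only 3 of 8680 pairs of a root-type gene and a high-score library reached the gene's root median.

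**Figure D2:**
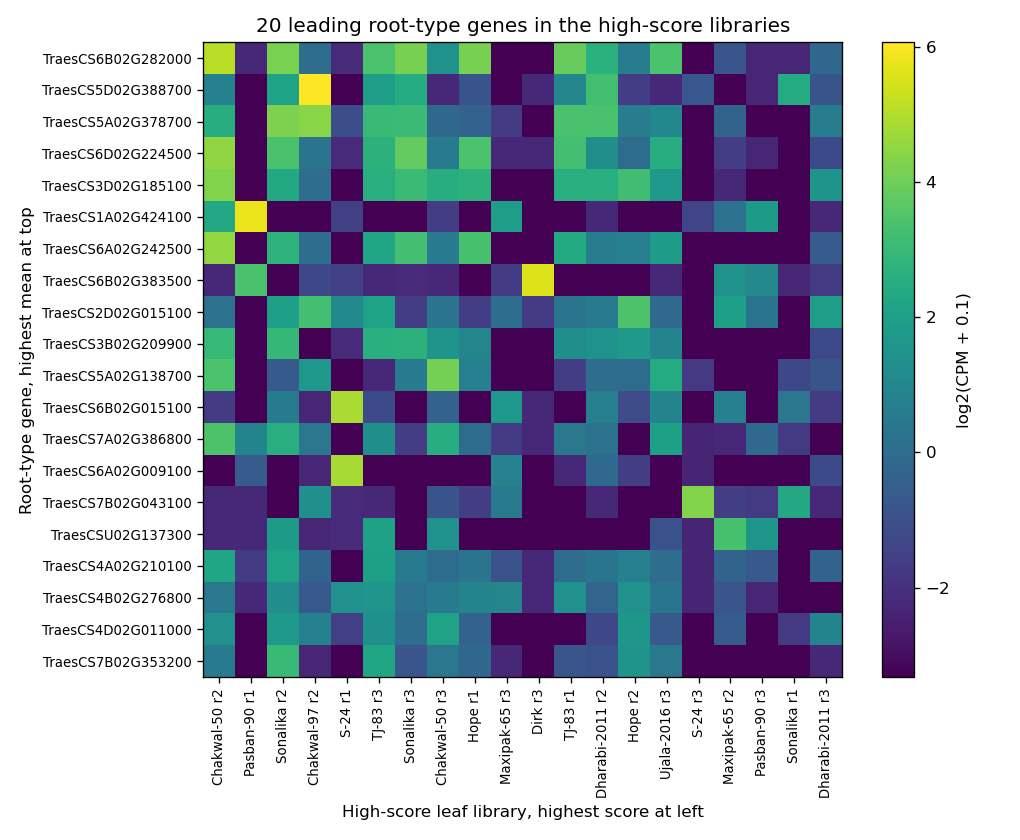
Expression of the 20 leading root-type genes (rows, by mean CPM) in the 20 high-score leaf libraries (columns, highest score at the left), as log2(CPM + 0.1); r stands for replicate. A block of genes led by TraesCS6B02G282000 is high in many of the libraries, while TraesCS1A02G424100, TraesCS6B02G383500 and TraesCS6A02G009100 are each far higher in 1 library than in the others.

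By label, the high-score group held 5 libraries numbered replicate 1, 6 numbered 2 and 9 numbered 3, and the low-score group 10, 5 and 5. The cultivar names outside the table of 24 held 9 of the 20 high-score libraries and none of the low-score group, although they made up 16 of the 82 leaf libraries. Scores of those 16 libraries ran from 15.3 to 151 CPM with a median of 54.8 CPM, and those of the other 66 from 4.77 to 231 CPM with a median of 16.8 CPM. Of 28 names with at least 2 leaf libraries, Sonalika alone had all its libraries in the high-score group, at 48.2, 99.3 and 151 CPM. Of 76 leaf pairs of 1 name, 10 were both high-score, 3 were both low-score and 3 joined a high-score and a low-score library, and 8 names had at least 2 libraries in the high-score group. The names found in both groups were 2: libraries named Chakwal-50 scored from 8.58 to 231 CPM and those named Dirk 4.77 and 74.4 CPM.

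High and low scores also met in libraries with the same on/off pattern. Over 241 on/off genes, none of them root-type, a match was set at 97% of the genes in the same state. Of 88 matching leaf pairs, 20 joined a high-score and a low-score library, 5 joined 2 high-score libraries and 6 joined 2 low-score libraries. The highest and the lowest score of all, Chakwal-50 replicate 2 and Dirk replicate 2, stood in the same state at 100% of these genes. The first held 2229 reads of root-type genes and the second 43. TraesCS6B02G282000 had 326 reads in the first and 0 in the second, and TraesCS6A02G242500 had 225 and 0. Between 2 libraries these are single values, with no replicate check.

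Root genes that the score did not use gave a mixed picture. The study lists 95 genes of root system architecture, of which none is root-type by the rule: 69 had a root median under 20 CPM. Among those at most 0.1 CPM in the median leaf and at least 1 CPM in the median root, 8 genes of 4 families remained. Because this subset was formed with the results known, its values are a description. In bulk samples, fewer cells of a type and less RNA per cell cannot be told apart.

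WOX11, a homeobox gene that promotes crown root emergence in rice, was read in many leaf libraries of every group. It had no read in 2 of the 20 high-score libraries, 17 of the 42 in between and 8 of the 20 low-score libraries. The summed CPM of its 3 homoeologues ran from 0 to 25.8 with a median of 0.594 in the high-score group, from 0 to 15.4 with a median of 0.104 in between, and from 0 to 1.09 with a median of 0.110 in the low-score group. The root median was 12.7 CPM. The groups overlapped, and 7 of 20 high-score against 1 of 20 low-score libraries held at least 1 CPM. In Pasban-90 replicate 3 the sum was above the root median, with 9.11 CPM on WOX11_2A, 4.81 CPM on WOX11_2B and 11.9 CPM on WOX11_2D. Of the 504 WOX11 reads in the high-score group, 252 lay in that library.

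DRO1, which sets the root growth angle in rice, was higher in several of these leaf libraries than in the median root. DRO1_5A had a root median of only 0.106 CPM and is not among the 8 genes. In the low-score group it ran from 0 to 0.744 CPM with a median of 0 CPM. In the high-score group it ran from 0 to 18.5 CPM with a median of 1.42 CPM. It was at 1 CPM or more in 11 high-score libraries, 5 of those in between and none of the low-score group, and Chakwal-50 replicate 2 was the highest. DRO1_5B, which is among the 8 genes, had a root median of 1.07 CPM and reached 4.19 CPM in S-24 replicate 1. Its median was 0.279 CPM in the high-score group and 0 CPM in the low-score group.

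The LRA1, EXPA8, LBD16 and TaMOR genes of the list stayed near 0 in leaf. LRA1, annotated in the study's list as an auxin efflux carrier, summed to at most 0.450 CPM in any high-score library against a root median of 24.1 CPM, and 10 of the 20 libraries had no read of it. EXPA8, an expansin that loosens the cell wall, had 3 reads in the whole high-score group. LBD16_4A and TaMOR_4A, members of the LOB-domain family that acts in lateral and crown root initiation, had 0 CPM in every leaf library. Their root medians were low too, at 0.642 and 0.409 CPM, so neither is among the 8 genes. A count of 0 allows up to 3 counts, which is 0.290 CPM in the deepest and 0.370 CPM in the shallowest high-score library, counting error only.

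Among all other genes, expression was higher in the high-score group more often than lower. Of 42514 genes tested outside the score, 4375 were at least 2-fold higher in the high-score group (10.3%) and 1697 at least 2-fold lower (3.99%), by edgeR fold changes on TMM-scaled counts. With library totals in place of TMM the median gene moved from 0.06 to 0.28 on the log2 scale, and the higher share of these calls from 72.1% to 87.01%. The 100 most abundant genes took a median of 17.2% of the counts in the high-score group, 18.5% in between and 23.4% in the low-score group. By median CPM, 3822 of the higher genes and 1144 of the lower genes were also past 2-fold. Whichever 1 library was left out, 4047 of the higher and 623 of the lower genes stayed past 2-fold by mean CPM. Both checks used CPM without TMM scaling. With library totals and no library left out, 870 genes in all were at least 2-fold lower by edgeR. The parts of the scale and of single libraries in the 623 were not tested apart. Without Chakwal-97 replicate 2 the TMM-scaled counts of higher and lower genes were 4148 and 1919. Between only the 11 high-score and 11 low-score libraries with an on/off match in the other group, they were 4694 and 2312. Full separation was rare: 9 genes (0.0212%) had CPM above every low-score library in all 20 high-score libraries, and 0 genes (0%) lay below.

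The share of higher and lower genes differed between classes of tissue ratio. Of 1800 tested genes at least 8-fold above leaf in the median root, 43.8% were at least 2-fold higher in the high-score group and 1.17% were lower, with a median log2 fold change of 0.84. Of 14970 genes 2- to 8-fold above leaf in root, 10.6% were higher, close to the 10.3% of all genes tested, and 0.681% were lower. The limits for root-type genes also draw on the root and leaf medians, so this class borders on the rule. Genes low in the median leaf could also pass the filter on low counts through the libraries where they were high. How many did so was not counted, so part of the higher share of the 8-fold class may come from the filter. Of 4807 genes at least 8-fold above root in the median leaf, 10.3% were higher and 19.6% lower, with a median of -0.47. A count of leaf-type genes by the mirrored limits (654 genes) gave a summed median of 165068 CPM in the high-score group and 218158 CPM in the low-score group. It ranged from 50223 to 219464 CPM in the high-score group and from 126162 to 329886 CPM in the low-score group. The libraries in between had a median of 168335 CPM, near that of the high-score group, and ranged from 66979.5 to 273256 CPM. In 6 high-score libraries, led by S-24 replicate 1 as the lowest, the sum was below that of every low-score library. The same held in 9 of the libraries in between, so a low sum was not particular to high scores.

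**Figure D3:**
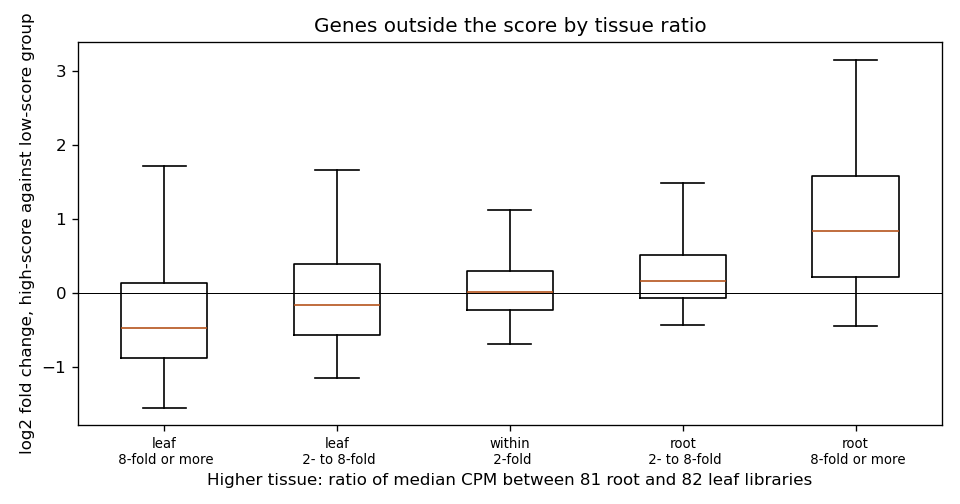
log2 fold change of 42514 genes outside the score, high-score against low-score group, by the ratio of median CPM in root and leaf. Boxes span the quartiles with the median as a line, and whiskers reach the 5th and 95th percentiles. The median rises from -0.47 in genes 8-fold or more above root in leaf to 0.84 in genes 8-fold or more above leaf in root. Genes low in leaf could pass the filter on low counts through the group where they were high.

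The largest differences upward included many genes near 0 in root. Of 91 genes at least 16-fold higher in the high-score group, 33 (36.3%) had a root median of at most 0.1 CPM. Of all genes tested, 5.37% had such a root median. In 30 of the 33 the low-score median was at most 1 CPM, so that they passed the filter on low counts through the libraries where they were high. TraesCS2A02G467500 ran from 0 to 311 CPM in the high-score group with a median of 6.49 CPM and did not pass 0.657 CPM in the low-score group. Its root median was 0.117 CPM and its log2 fold change was 7.81 ± 0.92 (SE), between 3.47 and 8.63 over the 6 alternatives in which it passed the filter. TraesCS4D02G360100 ran from 0.213 to 431 CPM with a median of 45.6 CPM in the high-score group and from 0 to 11.05 CPM with a median of 0.504 CPM in the low-score group, with a root median of 0 CPM and a log2 fold change of 6.74 ± 0.95 (SE). The first gene was above every low-score library in 17 of the 20 high-score libraries and the second in 13, so the groups overlapped for both.

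These 33 genes divided the high-score group. In 13 of its 20 libraries at least 31 of the genes were at 1 CPM or more, and in the other 7 libraries at most 17 were. Their summed CPM ran from 38.6 in S-24 replicate 3 to 8166 in Hope replicate 2. At least 31 of them were at 1 CPM in 5 of the libraries in between and in 1 of the low-score group, Punjab-96 replicate 3. Between 18 and 30 of them were at 1 CPM in 9 of the libraries in between, in 4 of the low-score group and in 0 of the high-score group. The 7 high-score libraries with at most 17 of them were Pasban-90 replicates 1 and 3, S-24 replicates 1 and 3, Maxipak-65 replicate 3, Dirk replicate 3 and Sonalika replicate 1. WOX11 was at 1 CPM or more in 5 of those 7. All 6 high-score libraries with a leaf-type sum below every low-score library were among them too. The 33 genes were chosen for their difference in these libraries, so the division is a description.

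**Figure D4:**
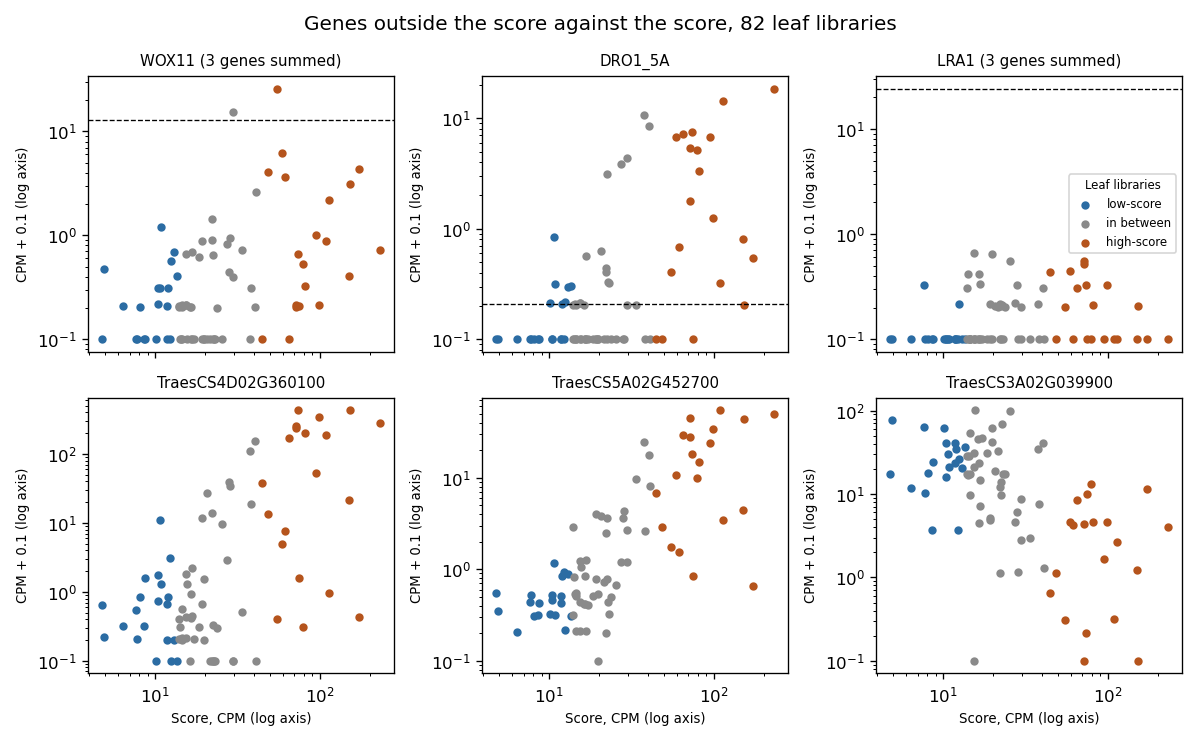
CPM plus 0.1 of genes outside the score (log axis) against the score (log axis) in the 82 leaf libraries; the dashed line is the root median, drawn where it is above 0. TraesCS4D02G360100 and TraesCS5A02G452700 are high in many but not all high-score libraries, WOX11 reaches its root median in 2 libraries, LRA1 stays far under its own, and TraesCS3A02G039900 is lower at high scores.

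The largest differences downward included genes near 0 in root. TraesCS3A02G039900 had a root median of 0 CPM. It ran from 0 to 12.98 CPM with a median of 3.27 CPM in the high-score group and from 3.58 to 76.1 CPM with a median of 23.8 CPM in the low-score group, a log2 fold change of -3.16 ± 0.48 (SE). Its neighbour by ID, TraesCS3A02G039800, had a median of 61.4 CPM in the low-score group and 7.20 CPM in the high-score group, with a log2 fold change of -3.07 ± 0.44 (SE). Its groups overlapped between 12.8 and 36.7 CPM.

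Of the study's root system architecture genes, 54 of 95 were abundant enough in leaf to be tested, 12 were at least 2-fold higher in the high-score group and 1 was lower, beside 10.3% and 3.99% of all genes tested. Their median log2 fold change was 0.30 against 0.06 over all genes. Of 18 tested auxin genes, 4 were at least 2-fold higher and none was lower. IAA11_1A, an Aux/IAA repressor of auxin response, ran from 6.36 to 33.9 CPM against 1.96 to 9.17 CPM, and 18 of 20 high-score libraries were above every low-score library. Its log2 fold change was 1.20 ± 0.20 (SE). IAA11_1D had the like change of 1.20 ± 0.21. ARF4, an auxin response factor, gave values between -0.21 and 0.05 over its 3 homoeologues, and CRL4, a GNOM-type exchange factor of vesicle traffic, between -0.13 and 0.27.

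Among 12 tested genes of abscisic acid, brassinosteroid and stress, 4 were higher and 1 was lower, beside 10.3% and 3.99% of all genes tested. All 4 were homoeologues of BRi1 or ABIL2. BRi1_3A, the brassinosteroid receptor kinase, ran from 3.19 to 33.6 CPM with a median of 14.5 CPM in the high-score group and from 1.66 to 7.01 CPM with a median of 3.60 CPM in the low-score group. Its log2 fold change was 1.70 ± 0.28 (SE), and BRi1_3D gave 1.42 ± 0.24. BRi1_3B gave 0.82 ± 0.25, with its lowest value of 0.102 CPM in the high-score group, which holds the library with low chromosome 3B counts. ABIL2, a protein phosphatase 2C of the kind that restrains abscisic acid signalling, gave 1.02 ± 0.23 for ABIL2_3A and 1.20 ± 0.22 for ABIL2_3D. SNAC1, a NAC factor linked to drought tolerance in rice, was the family on the other side. SNAC1_6B ran from 3.04 to 98.3 CPM with a median of 30.5 CPM in the high-score group and from 4.79 to 130.0 CPM with a median of 52.8 CPM in the low-score group, a log2 fold change of -1.06 ± 0.36 (SE). SNAC1_6A and SNAC1_6D gave -0.98 ± 0.40 and -0.86 ± 0.39, and the groups overlapped over nearly their whole range.

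Of 12 tested root hair genes 3 were at least 2-fold higher and none was lower. Of 5 tested expansins 1 was higher and none was lower. Of all genes tested, 10.3% were higher and 3.99% lower. RTH1, annotated in the list as a probable apyrase, gave 1.12 ± 0.30 for RTH1_2A and 1.00 ± 0.24 for RTH1_2D. RHD2_5D, a respiratory burst oxidase whose Arabidopsis counterpart is needed for root hair growth, gave 1.16 ± 0.60. Its high-score median was 1.94 CPM, its highest value 26.2 CPM in Chakwal-97 replicate 2, and 3 high-score libraries lay above every low-score library. RTH3, a COBRA-like protein of root hairs in maize, gave values between -0.06 and 0.33, and RTH3_4D was above the low-score median in 7 of 20 high-score libraries. Among the tested genes of the list EXPA10_2B had the largest difference, with a median of 3.51 CPM against 0.547 CPM, with a log2 fold change of 2.78 ± 0.45 (SE), and 13 of 20 high-score libraries were above every low-score library. It did not pass 1.67 CPM in the low-score group, so it leaned on the high-score libraries to pass the filter on low counts. It passed that filter in 14 of the 18 alternatives. The 13 genes past 2-fold kept their direction under every alternative in which they passed the filter, but not their size. With only the 24 cultivars 10 of the 13 were under 2-fold, among them BRi1_3A at 0.91, BRi1_3D at 0.76, IAA11_1A at 0.66, IAA11_1D at 0.58, RTH1_2A at 0.60, RTH1_2D at 0.44 and SNAC1_6B at -0.39. RHD2_5D was at 0.68 without Chakwal-97 replicate 2 alone.

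**Figure D5:**
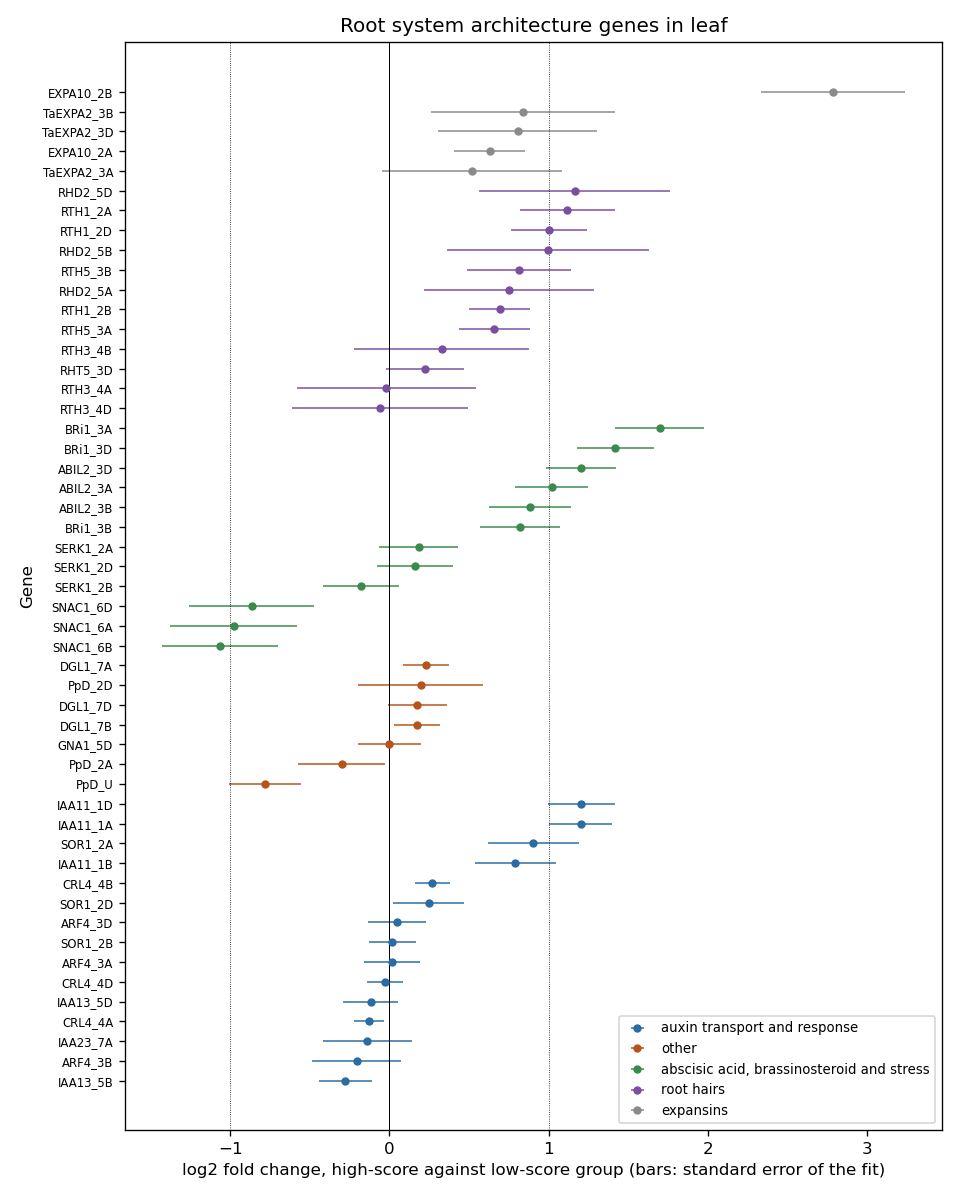
log2 fold change, high-score against low-score group, of 51 of the 54 tested root system architecture genes, colored by role; bars are the standard error of the fit (20 libraries a group) and dotted lines mark 2-fold. EXPA10_2B, which leaned on the high-score libraries to pass the filter, stands at 2.78 and BRi1_3A at 1.70. The 3 SNAC1 genes lie between -1.06 and -0.86.

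The 42 libraries between the groups, which the contrast did not use, gave the test. They are not fully independent of it. On/off matches joined 19 pairs of a high-score library and one in between, and 14 such pairs shared a name. The fit held no term for cultivar name or on/off pattern. Their scores ran from 13.9 to 41.1 CPM, a 2.96-fold range, and each other gene was fitted on the log2 score with edgeR's quasi-likelihood test. Of 48412 genes tested, 310 rose with the score (0.64%) and 50 fell (0.103%) at a Benjamini-Hochberg adjusted p under 0.1. Of the 310 that rose, 241 were also tested between the groups, where 199 were at least 2-fold higher in the high-score group and 1 was lower, with a median log2 fold change of 2.04. Of the 50 that fell, 46 were tested there, and 16 were at least 2-fold lower and none was higher. Of the 310, 200 had a root median at least 2-fold above that of leaf (41.3% of all genes tested here), and of the 50, 32 had a leaf median at least 2-fold above that of root (21.3% of all). The counts depended on a part of the libraries. Without the 12 libraries numbered replicate 1 they were 15 and 0, and without Ujala-2016 replicate 1 alone they were 156 and 15.

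TraesCS5A02G452700, with a root median of 0 CPM, rose by 2.65 ± 0.40 (SE) on the log2 scale per doubling of the score in these libraries, with an adjusted p of 0.000677 by edgeR. It ran from 0 to 24.4 CPM there, and its median was 12.8 CPM in the high-score group and 0.337 CPM in the low-score group. TraesCS1B02G199500, a gene with 18.4 CPM in the median root, rose by 1.97 ± 0.30 per doubling with the same adjusted p of 0.000677 by edgeR. TraesCS4D02G360100, among the largest differences between the groups, rose by 4.84 ± 0.86 per doubling with an adjusted p of 0.00402 by edgeR. The other IDs printed for that contrast did not pass. TraesCS2A02G467500 gave 3.02 ± 1.14 per doubling (adjusted p = 0.269 by edgeR). TraesCS3A02G039900 gave -0.75 ± 0.56 (adjusted p = 0.642 by edgeR) and TraesCS3A02G039800 -0.44 ± 0.46 (adjusted p = 0.771 by edgeR). TraesCS4B02G128100 fell by 0.94 ± 0.17 per doubling with an adjusted p of 0.00402 by edgeR, and its root median was 0 CPM. TraesCS4B02G107500 fell by 0.51 ± 0.11 with an adjusted p of 0.0287 by edgeR. Both genes lie on chromosome 4B, whose median gene stood at a log2 ratio of -0.91 in Ujala-2016 replicate 1. Without that library the adjusted p by edgeR was 0.0195 for TraesCS4B02G128100 and 0.0798 for TraesCS4B02G107500. Without the replicate 1 libraries, the adjusted p of TraesCS5A02G452700 was 0.144, that of TraesCS4B02G128100 was 0.263 and that of TraesCS4B02G107500 was 0.562. Without the replicate 3 libraries those of the last pair were 0.156 and 0.129, all by edgeR. With only the 24 cultivars the adjusted p of TraesCS4B02G107500 was 0.119 by edgeR.

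Of the 33 genes near 0 in root, all 33 had a slope above 0 in these libraries and 14 passed the test. None of 60 tested root system architecture genes passed with edgeR. Of these, 8 had an unadjusted p under 0.05, beside 11.5% of all genes tested, and the lowest adjusted p was 0.143 (EXPA10_2B), while DESeq2 called 2, EXPA10_2B and SOR1_2D. The slopes here are per doubling of the score. The mean scores of the groups differed 9.69-fold, so a slope and a fold change between the groups are unlike measures. EXPA10_2B gave 1.00 ± 0.31 per doubling. BRi1_3A gave 0.34 ± 0.25 per doubling (adjusted p = 0.648 by edgeR) and IAA11_1A 0.20 ± 0.23 (adjusted p = 0.790 by edgeR). By edgeR, a trend of these genes with the score was thus not shown outside the libraries that the score selected.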

How the data were processed

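Total RNA of seedling leaf and root was primed with oligo(dT) and sequenced as short single-end reads on a BGISEQ-500. Per the study's methods the reads were cleaned with SOAPnuke, mapped with HISAT2 and counted per gene with featureCounts; the genome build and the strand setting are not given in the sources used here. The deposited files hold raw counts per gene, and the tpm values that the authors made from them. The deposited tpm columns of the 40 libraries in both groups equalled counts divided by gene length and rescaled to a fixed total (within 0.1% or 0.001 tpm). Gene rows without a coding-gene ID (12853 noncoding IDs) held 0.0179% of the counts and stayed in.

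Counts were joined into 1 table and turned into CPM with Python 3.11.15 (pandas 2.3.3). Fold changes and trends came from edgeR 4.0.16 in R 4.3.3: TMM scaling, filterByExpr, quasi-likelihood fit, Benjamini-Hochberg adjustment over all genes tested and a threshold of 0.1. Fold changes of the selected groups carry a standard error but no p-value. A gene was called on above 2 CPM and off below 0.15 CPM, and an on/off gene lay between in at most 5% of libraries. Named genes were the leading root-type genes by mean CPM in the high-score group, the largest changes among other genes with a median of at least 5 CPM in a group, the smallest p-values of the libraries in between among genes past 2-fold the same way, and root system architecture genes that were root-type or past 2-fold. For IDs without a name at most a pair in each direction is printed for each comparison. DRO1, WOX11, LRA1 and others too low for the test were named after their values were seen. The members and lists were chosen with earlier results of these data known, and the fits were tested on simulated data. Alternatives used DESeq2 1.42.0, limma 3.58.1 on log2(tpm + 1), other scores, scalings and filters, and libraries left out. Lists to be matched by description could not be used, since the reference table pairs none of these IDs with a description. A gene family of the study's list is counted but not reported here.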

Additional observations from a re-analysis of the deposited data

How the results depend on the processing

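The high-score against low-score contrast had 18 alternatives. The count of genes at least 2-fold higher, 4375, moved by over 1.5 times with only the 24 cultivars (2516), with no filter on low counts (15615) and with limma on log2(tpm + 1) (2903). The count of lower genes, 1697, so moved with the 8 highest and lowest libraries (2749), the 27 highest and lowest (1003), the 24 cultivars (722), library size only (870), no filter (4674) and limma (877). Leaving out replicate 1, 2 or 3 gave 3775 to 5607 higher and 1501 to 2860 lower genes. The cause was not tested. Of the genes named there, none changed direction. In the alternatives, IAA11_1D lay between 0.58 and 1.41 and SNAC1_6B between -1.44 and -0.37. The trend over the 42 libraries in between called 310 higher and 50 lower genes. The counts were 591 and 228 with DESeq2, 2919 and 471 with no filter, 741 and 126 with the mean log2 score, 123 and 10 at an adjusted p under 0.05, and 156 and 15 without Ujala-2016 replicate 1, an alternative chosen after seeing the data. With only the 24 cultivars 8 genes were lower. With the replicate number as a block the counts were 486 and 80; the numbers come from the count columns and nothing says that they pair libraries. Leaving out replicate 1, 2 or 3 gave 15 to 135 higher and 0 to 17 lower genes by edgeR (3713 to 4779 genes with an unadjusted p under 0.05), from fewer libraries. Depth limits genes under about 0.3 CPM, where a library holds at most 3 reads.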
